A study of Homo sapiens with 4 samples.

Results

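The genes analysed were the core and linker histone genes, taken from the count table by symbol as all genes named *H1-* with a number, *H2AC*, *H2BC*, *H3C*, *H4C*, *H2AW* or *H2BW* with a number, or by the older *HIST* symbols. This rule found 72 of the 28278 genes, with 10 for the linker histone H1, 16 for H2A, 19 for H2B, 13 for H3 and 14 for H4. RNA-seq of polyA RNA was performed in 4 libraries labelled as HepG2 cells, a human hepatocellular carcinoma cell line, all treated with Sorafenib (10 µM, 24 h), a multikinase inhibitor used against liver cancer. The 2 control libraries came from cells infected with lentivirus carrying Cas9 and a control sgRNA, and the 2 libraries labelled *USP22* knockout from cells infected with Cas9 and a *USP22* sgRNA. The cells were infected populations with stable expression and not single clones, and there was no library without Sorafenib or without Cas9.

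Core histones form the octamer around which DNA is wrapped, and linker histones bind the DNA between octamers. Most of their genes are replication-dependent. They are transcribed in S phase under the coactivator NPAT, they have no introns, and their mRNAs end in a stem-loop in place of a polyA tail. H2B is the class that carries the ubiquitin removed by the SAGA deubiquitinase module, of which USP22 is the enzyme, so the effect on H2B transcripts was compared with that on the other classes. The symbol rule also took in genes that are not replication-dependent, such as *H1-10*, whose mRNA is polyadenylated, and germline histones such as *H1-6*, *H1-7*, *H1-8*, *H2BW1* and *H2BW2*.

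The stem-loop is where the mRNAs of replication-dependent histone genes end, so it is shown first. A consensus that fixes 10 of the 16 bases of the histone stem-loop was searched on the coding strand of hg38 within 150 bases after the stop codon of the canonical GENCODE transcript. It was found in 66 of the 72 genes (91.7%) and in 3 of 18881 other coding genes (0.0159%), namely *H2AX*, *H3-4* and *TIPARP*. Genes whose symbol had no match in GENCODE, the histone genes *H2AW* and *H2BU1* among them, were not searched. Among those without it were *H1-10*, *H2BW1* and *H2BW2*. The germline *H1-6* held it, so a match alone does not mark a member as replication-dependent. The sequences below are those of members described in the following paragraphs, written 5′ to 3′ with the loop in capitals.
H2BC12 (chr6:27146366-27146381, minus strand): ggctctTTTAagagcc
H1-2 (chr6:26055744-26055759, minus strand): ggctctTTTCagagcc
H2AC6 (chr6:26124669-26124684, plus strand): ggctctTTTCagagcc
H2AC18 (chr1:149842223-149842238, minus strand): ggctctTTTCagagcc
H2AC11 (chr6:27133515-27133530, plus strand): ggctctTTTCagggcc
H4C14 (chr1:149833032-149833047, plus strand): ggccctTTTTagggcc
The sequence shown for *H1-2*, *H2AC6* and *H2AC18* was shared by 38 genes. That of *H2BC12* was shared by 9 genes, among them *H2BC4*, *H2BC5*, *H2BC7* and *H2BC11*. The H4 genes carried another stem, and the form shown for *H4C14* was shared by 4 of them. *H2AC11* was the single gene with its sequence. Genes with the same stem-loop moved in opposite directions, since *H2AC6* was called higher and *H2AC18* lower, as described below.

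The libraries held between 62030307 and 64728272 counts, and levels are given as CPM, counts scaled to library size with TMM factors. Where a gene is listed at 0, up to 3 counts remain possible, which is 0.0463 to 0.0484 CPM and covers counting error only. *USP22*, the gene targeted, was at 16450 and 16537 counts in control against 20279 and 20368 counts in the libraries labelled knockout. Its transcript was thus not lower there, and every direction follows the label. The study checked the efficiency of knockout by Western blot of the protein, which transcript counts do not measure. Of 22 hepatocyte markers, 13 were listed at 0 in all 4 libraries, with *ALB*, *APOA1*, *APOB* and *TTR* among them, and 1, *ASGR1*, passed the filter and was lower. These markers go against the liver cell label, and the cells are called HepG2 by their label only. Of 7 fibroblast markers 5 passed the filter and 2 were called higher (*DCN* and *LUM*). All 7 summed to 632 and 637 CPM in control and to 895 and 898 CPM in the libraries labelled knockout. The highest of them, *COL3A1*, was not called, at 499 and 508 CPM in control against 576 and 569 CPM. The 7 leukocyte markers summed to 73.8 and 74.1 CPM in control and to 44.1 and 47.0 CPM in the libraries labelled knockout, nearly all of it *CD68*, and 3 of them were listed at 0 in every library. The part of these shifts in the results below was not tested.

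Histone mRNAs were unevenly distributed over the 72 genes. Of these, 13 were listed at 0 in all 4 libraries, 42 passed the filter on low counts and were tested, and 30 were not tested. Per kilobase of canonical transcript, the polyadenylated *H1-10* was at 177 CPM in control, *H2BC12* at 78.6 CPM, *H1-2* at 33.8 CPM, *H2AC18* at 27.9 CPM and *H2AC6* at 21.8 CPM. The highest H2B gene after *H2BC12* was *H2BC5* at 14.3 CPM per kilobase, the highest H4 gene *H4C14* at 12.5 CPM, and the highest H3 gene *H3C10* at 1.84 CPM. In the libraries labelled knockout *H2BC12* stood at 114 CPM per kilobase, *H1-2* at 55.7 CPM, *H2AC6* at 40.1 CPM and *H2AC18* at 11.7 CPM, so that *H2AC6* and *H2AC18* changed places. A few genes thus held most of the counts of the H2A, H2B and H4 classes. Counts from polyA RNA do not show how much of a histone mRNA ended at the stem-loop, and in bulk RNA fewer cells in S phase and less histone RNA per cell cannot be told apart.

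The core classes did not move together in their summed levels. H2B summed to 73.0 and 70.3 CPM in control replicates 1 and 2 and to 89.4 and 88.7 CPM in the libraries labelled knockout. H3 summed to 4.97 and 4.41 CPM in control and to 2.83 and 2.85 CPM in the libraries labelled knockout. The H2B sum was thus higher and the H3 sum lower without overlap. H2A was at 33.4 and 34.0 CPM in control against 34.7 and 31.8 CPM, and H4 at 9.73 and 10.9 CPM against 14.3 and 10.8 CPM, so these sums overlapped between the groups. *H2AW* and *H2BU1*, an H2A and an H2B gene that the symbol rule does not match, were both lower and are not in these sums. An exact two-sided permutation test of 2 against 2 libraries cannot go below p = 0.333, and the sums are given with no test. A single gene carried the H2B difference. Without *H2BC12* the other 18 H2B genes summed to 33.7 and 31.8 CPM in control and to 33.5 and 31.7 CPM in the libraries labelled knockout, which overlapped.

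**Figure D1:**
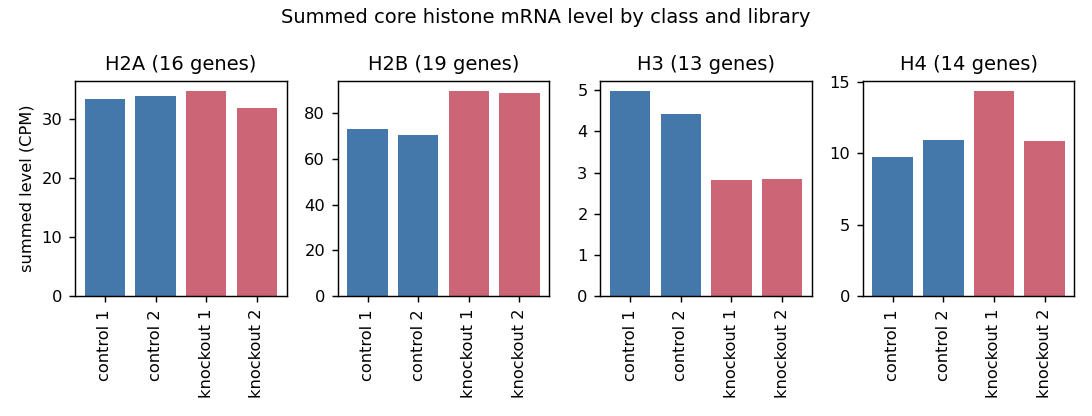
Summed level of the genes of each core histone class matched by the symbol rule (CPM, vertical axes starting at 0 with their own scales) in the 4 libraries, 1 bar per library. The H2B bars are higher and the H3 bars lower in both libraries labelled *USP22* knockout, while the H2A and H4 bars overlap between the groups.

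Gene by gene, H2A and H2B held calls in both directions, and H1, H3 and H4 in 1 direction each. With edgeR's quasi-likelihood test, a Benjamini-Hochberg adjusted p below 0.05 and at least a 1.5-fold difference, 5 of the 42 tested genes were higher in the libraries labelled knockout (11.9%, beside 8.88% of all tested genes). These were *H1-2*, *H2AC6*, *H2BC4*, *H2BC5* and *H4C14*. Another 5 were lower (11.9%, beside 7.25% of all tested genes), namely *H2AC11*, *H2AC12*, *H2AC18*, *H2BC7* and *H3C14*. By adjusted p alone 6 genes were higher (14.3%, beside 26.8% of all tested genes) and 8 were lower (8 of 42, beside 25.8%). The calls with the fold threshold were thus near the background in number, and those by adjusted p alone were below it. The groups did not overlap, with the libraries labelled knockout higher, for 6 genes (14.3%, beside 38.3% of all tested genes) and, with them lower, for 21 genes (21 of 42, beside 37.6%). The median log2 fold change of the 42 tested genes was −0.30, beside 0.00091 for all tested genes, with 30 genes below 0 and 12 above.

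**Figure D2:**
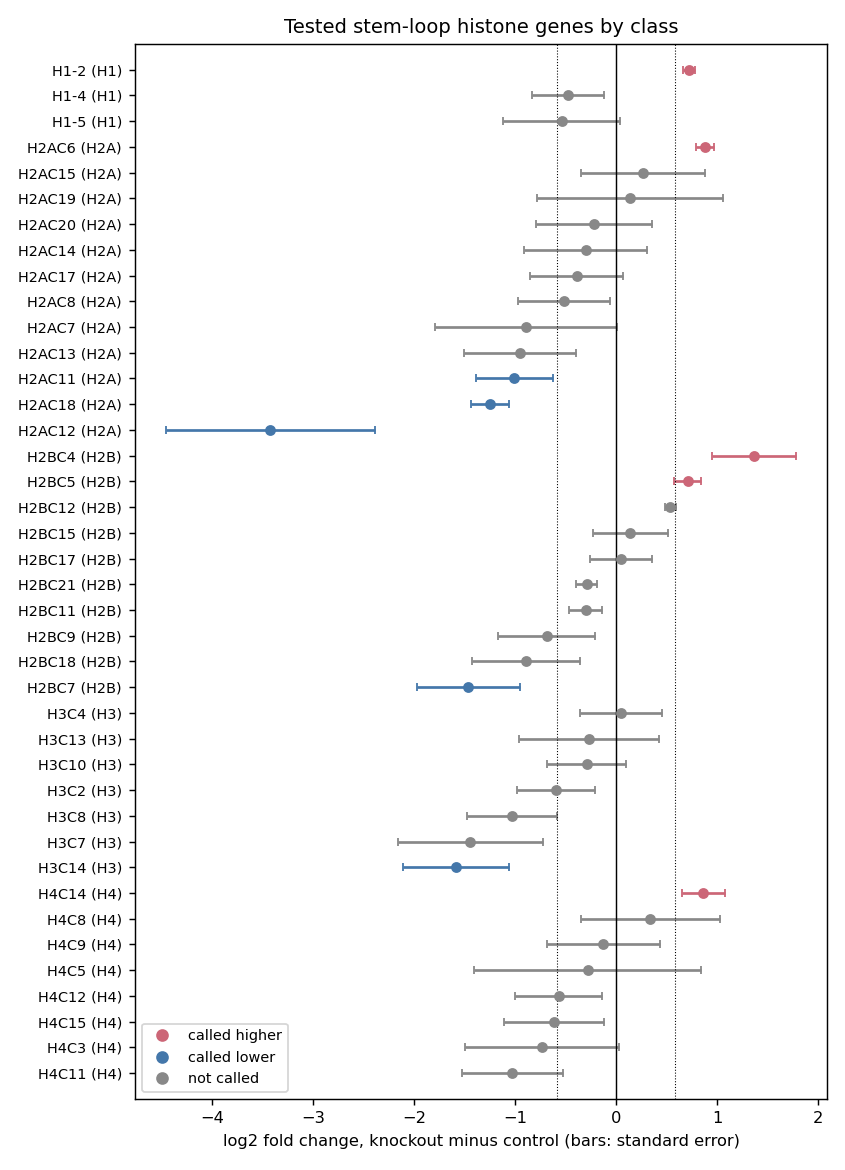
Log2 fold change of the 40 tested histone genes with a stem-loop, libraries labelled *USP22* knockout minus control, with the standard error of edgeR's fit as bars and dotted lines at 1.5-fold, ordered by class. H2B spans −1.46 (*H2BC7*) to 1.37 (*H2BC4*), and 6 of the 7 tested H3 genes lie below 0.

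Among the linker histones, the replication-dependent *H1-2* was the gene that rose. It encodes a somatic H1 subtype and lies in the histone cluster of chromosome 6 (chr6:26055740-26056470, minus strand). It had 1495 and 1550 counts in control and 2716 and 2585 counts in the libraries labelled knockout, which do not overlap. Its level went from 24.7 ± 0.231 to 40.7 ± 0.911 CPM (SD, n = 2), a log2 fold change of 0.72 (standard error, SE, 0.062, with an edgeR quasi-likelihood p of 9.4e-06 after Benjamini-Hochberg adjustment). *H1-10*, which lies outside the histone clusters, had 16356 and 16791 counts against 15717 and 14419 counts and fell by 0.22 on the log2 scale (SE 0.040, adjusted p = 0.00132). It did not reach 1.5-fold, and after removal of GC content and length trends its log2 fold change was 0.058. The subtypes *H1-4* and *H1-5* were at −0.48 and −0.54 and did not pass the test. No linker gene was called lower.

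Among the H2A genes matched by the symbol rule, the total level concealed an exchange between genes. *H2AC6*, a canonical H2A gene of the chromosome 6 cluster (chr6:26124145-26139116, plus strand), had 686 and 712 counts in control and 1420 and 1294 counts in the libraries labelled knockout. These do not overlap, and the level went from 11.3 ± 0.115 to 20.8 ± 1.11 CPM (SD, n = 2), with a log2 fold change of 0.88 (SE 0.090, adjusted p = 2.8e-05). *H2AC18* (chr1:149842218-149842750, minus strand), in the smaller cluster of chromosome 1, had 707 and 1132 counts in control against 424 and 391 counts, again without overlap. It fell by 1.25 on the log2 scale (SE 0.18, adjusted p = 0.000303). As a share of the counts of these H2A genes, *H2AC6* was at 33.6% in both control libraries and at 62.3% and 63.0% in the libraries labelled knockout. *H2AC18* and its copy *H2AC19* together went from 53.5% and 53.8% to 29.2% and 29.6%, while the H2A sum overlapped between the groups. That sum leaves out *H2AW*, an H2A gene that the symbol rule does not match. *H2AW* was at 21.8 and 21.2 CPM in control and at 10.7 and 10.1 CPM in the libraries labelled knockout. The overlap of the H2A sum thus holds for the genes of the rule only.

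The remaining H2A genes were low. *H2AC11* (chr6:27133043-27133535, plus strand) had 49 and 62 counts in control and 28 and 30 counts in the libraries labelled knockout, a log2 fold change of −1.01 (SE 0.38, adjusted p = 0.0486). *H2AC12* (chr6:27147106-27147562, plus strand) had 28 and 15 counts against 0 and 4 counts, with a log2 fold change of −3.42 (SE 1.03, adjusted p = 0.0186). At these counts the size of the fitted change of *H2AC12* depends on how the 0 is treated. The 13 H2A genes other than *H2AC6*, *H2AC18* and *H2AC19* summed to 4.31 and 4.28 CPM in control and to 2.95 and 2.35 CPM in the libraries labelled knockout, without overlap. *H2AC7*, *H2AC8*, *H2AC13*, *H2AC14*, *H2AC15*, *H2AC17*, *H2AC19* and *H2AC20* did not pass the test, with log2 fold changes between −0.95 for *H2AC13* and 0.27 for *H2AC15*. In all, 1 of the 12 tested H2A genes was called higher (8.33%, beside 8.88% of all tested genes) and 3 lower (25.0%, beside 7.25%). The median was −0.45.

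H2B held the most abundant of the stem-loop genes. *H2BC12* (chr6:27146361-27146855, minus strand) had 2398 counts in each control replicate and 3672 and 3680 counts in the libraries labelled knockout. The groups were far apart, at 38.9 ± 0.629 and 56.4 ± 0.797 CPM (SD, n = 2), with a log2 fold change of 0.54 (SE 0.051, adjusted p = 1.7e-05). Its fold change of 1.45 lay just under the threshold of 1.5, so it passed the test but was not called. As a share of all H2B counts it went from 53.9% and 54.7% to 62.5% and 64.3%. *H2BC5* (chr6:26158122-26171349, plus strand) had 469 and 385 counts in control against 766 and 710 counts and rose by 0.71 on the log2 scale (SE 0.13, adjusted p = 0.00123). *H2BC4* (chr6:26086317-26123926, minus strand) had 23 and 21 counts against 48 and 72 counts, a log2 fold change of 1.37 (SE 0.42, adjusted p = 0.0194). Its canonical exon lies wholly on an annotated gene of the opposite strand, and the strand setting of the counting is not given in the sources used here, so reads of the 2 cannot be told apart.

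None of the other tested H2B genes passed the test with a higher level. *H2BC7* (chr6:26199516-26199988, plus strand) had 45 and 39 counts in control and 11 and 21 counts in the libraries labelled knockout, a log2 fold change of −1.46 (SE 0.51, adjusted p = 0.0349). *H2BC21*, of the chromosome 1 cluster, had 984 and 919 counts against 887 and 758 counts and fell by 0.29 (SE 0.10, adjusted p = 0.0403), short of 1.5-fold. *H2BC11* had 274 and 353 counts against 268 and 269 counts (log2 fold change −0.30, adjusted p = 0.149). The lower pair of libraries was the one labelled knockout for these 3 genes, without overlap, but the last did not pass the test. *H2BC9*, *H2BC15*, *H2BC17* and *H2BC18* did not pass it either, with log2 fold changes from −0.90 for *H2BC18* to 0.14 for *H2BC15*. Thus 2 of the 10 tested H2B genes were called higher (beside 8.88% of all tested genes) and 1 lower (beside 7.25%).

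Against the other classes, the tested H2B genes stood somewhat higher. Their median log2 fold change was −0.12 and that of the 32 tested genes of the other classes −0.43, a difference of 0.31 that was not tested. Computed instead from the log2 CPM of single libraries, this difference was 0.20, 0.24, 0.16 and 0.23 in the 4 pairings of a library labelled knockout with a control library. Between replicates of a group it was 0.00034 in control and 0.087 in the libraries labelled knockout. The direction depended on the genes included. With the untested low genes added, as in the fits without a filter and with DESeq2, the difference was −0.16. It was 0.064 without control replicate 1, 0.42 without control replicate 2, 0.18 without knockout replicate 1 and 0.098 without knockout replicate 2. In these fits without a library the filter was applied again, so the genes included were not held fixed. The part of the removed library and that of the changed gene set cannot be told apart.

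**Figure D3:**
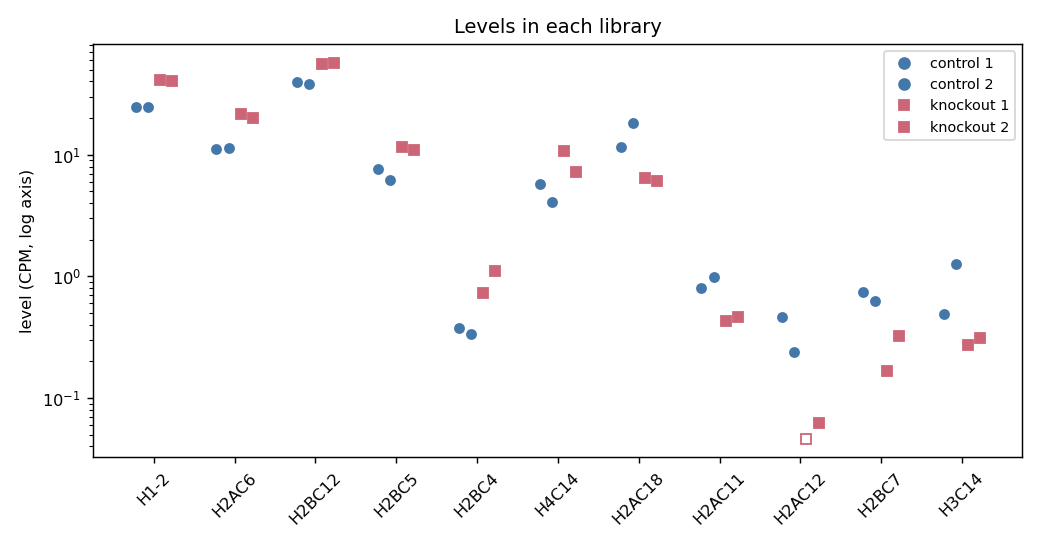
Level (CPM, log axis) in each of the 4 libraries for the 10 called genes and *H2BC12*. Control libraries are circles and libraries labelled *USP22* knockout are squares, and the open square of *H2AC12* stands for a count of 0 drawn at the floor of 3 counts. In none of these genes do the groups overlap.

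H3 was the class with the lowest level and with no gene called higher. *H3C14* (chr1:149840687-149841208, minus strand) had 30 and 79 counts in control and 18 and 20 counts in the libraries labelled knockout. These do not overlap, though the control libraries were far apart, and the log2 fold change was −1.59 (SE 0.53, adjusted p = 0.0281). *H3C10* and *H3C2*, the highest H3 genes per length by the mean of both groups, had 70 and 40 counts against 46 and 49 counts and 50 and 46 counts against 29 and 38 counts. Their log2 fold changes of −0.29 and −0.59 did not pass the test. *H3C8* had 49 and 36 counts against 23 and 21 counts (log2 fold change −1.03, adjusted p = 0.0793) and *H3C7* had 18 and 21 counts against 11 and 4 counts (−1.44, adjusted p = 0.119). Of the 7 tested H3 genes 1 was called lower (14.3%, beside 7.25% of all tested genes). For 5 the groups did not overlap, with the libraries labelled knockout lower (71.4%, beside 37.6%). The median was −0.59.

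Among the H4 genes, most of which encode the same protein, *H4C14* (chr1:149832657-149839767, plus strand) was called higher. It had 353 and 254 counts in control and 704 and 468 counts in the libraries labelled knockout, a log2 fold change of 0.87 (SE 0.21, adjusted p = 0.00632). *H4C15* had 56 and 211 counts against 113 and 70 counts, which overlap (log2 fold change −0.62, adjusted p = 0.328). The other 6 tested H4 genes did not pass the test, from −1.03 for *H4C11*, with 52 and 41 counts against 14 and 34 counts, to 0.34 for *H4C8*. The median of the 8 tested H4 genes was −0.42.

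Several of these genes have near-identical copies, between which counted reads can be split in any proportion. Of the 100-base windows of *H2AC18*, 100% also occur in *H2AC19*, and the same holds for 99.1% of those of *H3C14* in *H3C15* and 100% of those of *H4C14* in *H4C15*. The split varied between libraries. *H2AC19* held 35.1% and 0.702% of the pair's counts in control replicates 1 and 2 and 36.4% and 35.6% in the libraries labelled knockout, and *H4C15* held 13.7% and 45.4% of its pair in control and 13.8% and 13.0% in the libraries labelled knockout. When the copies were summed, *H2AC18* with *H2AC19* had 1090 and 1140 counts in control and 667 and 607 counts in the libraries labelled knockout. The summed log2 fold change was −0.89 (SE 0.094, adjusted p = 3.5e-05 by edgeR's quasi-likelihood test), so the decrease remained with a smaller size. *H3C14* with *H3C15* had 57 and 83 counts against 20 and 22 counts and fell by 1.81 (SE 0.40, adjusted p = 0.00339). *H4C14* with *H4C15* had 409 and 465 counts against 817 and 538 counts. This pair rose by 0.55 (SE 0.17, adjusted p = 0.0230), under 1.5-fold, so the call for *H4C14* was not kept by the pair. Of the 100-base windows of *H2BC12*, 22.5% also occur in another annotated gene, so reads from those windows cannot be told apart.

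**Figure D4:**
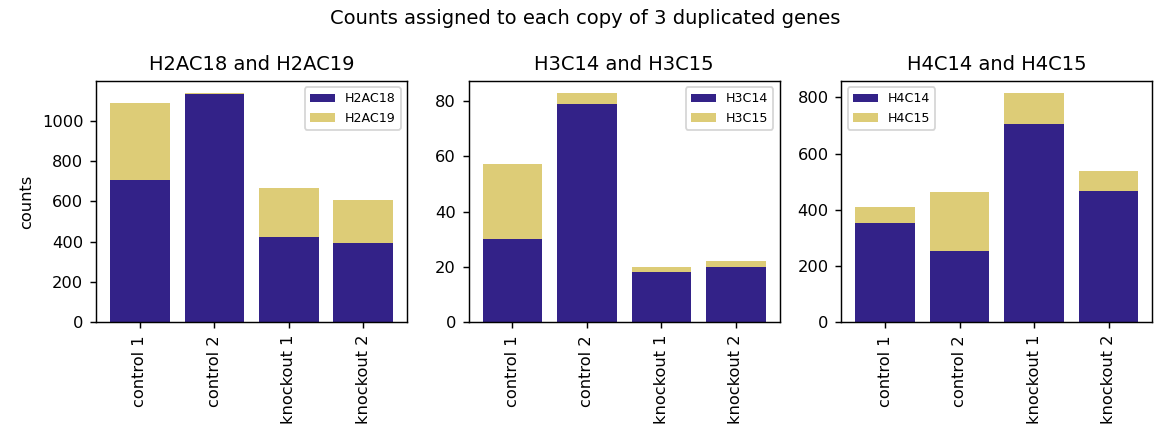
Counts assigned to each copy of 3 duplicated genes in the 4 libraries, stacked, with vertical axes starting at 0. The odd split is in control replicate 2 for *H2AC19* (8 counts) and *H4C15* (211) and in control replicate 1 for *H3C15* (27), while the stacked totals of *H2AC18* with *H2AC19* (1090 and 1140 against 667 and 607) and of *H3C14* with *H3C15* (57 and 83 against 20 and 22) are lower in the libraries labelled *USP22* knockout.

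Most tested members with few counts were below 0, while the abundant ones were evenly split. The 12 tested genes with a mean of at least 100 counts had a median change of 0.020 on the log2 scale, with 6 above and 6 below 0. Over the 12145 tested genes of that abundance the median was 0.0037. Of the 12 members 4 were called higher and 1 lower, beside 1054 and 807 of the 12145. The 30 tested genes under 100 counts had a median of −0.53, with 24 below 0. Over the 3005 tested genes of that abundance the median was −0.020 and 51.1% lay below 0. Of the 30 members 1 was called higher and 4 lower, beside 291 and 291 of the 3005. For 16 of these 30 (53.3%) the groups did not overlap with the libraries labelled knockout lower, beside 28.3% of the 3005. Over all 60 members under 100 counts, tested or not, the counts summed to 1179 and 1178 in control and to 871 and 882 in the libraries labelled knockout, or 19.3 and 18.9 CPM against 13.3 and 13.7 CPM. The decrease was larger outside H2B. The 15 low H2B genes summed to 327 and 328 counts in control against 283 and 310 counts, and the 45 low genes of the other classes to 852 and 850 counts against 588 and 572 counts. The 30 untested genes summed to 98 and 99 counts against 33 and 41 counts, for example *H3C15* with 27 and 4 counts against 2 and 2 counts, and *H4C2* with 13 and 8 counts against 4 and 0 counts. *H1-6* was the other way, with 0 counts in both control replicates against 7 and 2 counts, values too low to compare.

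A correction for transcript length and base composition moved the higher and the lower calls alike towards higher values, so that calls were lost among the lower genes alone. With GC content and length trends removed from each library, the median of the tested members moved from −0.30 to −0.090, and *H2AC18* (−0.95, adjusted p = 0.00184) and *H2AC12* (−3.15, adjusted p = 0.0315) were still called lower. *H3C14* (−1.27, adjusted p = 0.0710), *H2BC7* (−1.23, adjusted p = 0.0729) and *H2AC11* (−0.73, adjusted p = 0.143) stayed below 0 but did not pass the test. All 5 higher calls were kept in that fit, with log2 fold changes from 0.94 for *H1-2* and *H2BC5* to 1.62 for *H2BC4*, and *H2BC12* at 0.80 was called in addition. *H1-2*, *H2AC6* and *H2AC18* were called under 7 of 7 other settings of tool, scaling, filter, replicate block and GC correction, and in 4 of 4 fits without a library. *H2BC5* stayed past the adjusted p in all 4 fits but was at 0.56, under 1.5-fold, without control replicate 2. *H4C14* lost its call without knockout replicate 1 (0.54, adjusted p = 0.0666). *H2BC4* lost it without control replicate 2 (adjusted p = 0.0676) and without knockout replicate 2 (adjusted p = 0.189), and *H2AC12* without control replicate 1 (adjusted p = 0.135) and without knockout replicate 1 (adjusted p = 0.0917). *H3C14* kept its call only without control replicate 1, *H2BC7* only without knockout replicate 2, and *H2AC11* in none of the 4.

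The members were also described by their annotated 3′ end. In GENCODE or RefSeq, 15 of the 66 stem-loop genes had a transcript running more than 100 bases past the stem-loop, and 14 of these 15 had the polyadenylation signal AATAAA or ATTAAA in the exons past it. The exception was *H2BC12*, whose longer transcript is in RefSeq alone and was not searched. Among the 15 were *H2AC6*, *H2BC4*, *H2BC5*, *H2BC11*, *H2BC12*, *H2BC21*, *H4C14* and *H4C15*. Of the 12 that were tested 4 were called higher (33.3%, beside 8.88% of all tested genes) and none lower, with a median log2 fold change of 0.24 and 5 below 0. One of the 4, *H4C14*, was not called when summed with its copy. Their counts summed to 88.9 and 86.5 CPM in control and to 123 and 115 CPM in the libraries labelled knockout. Of the 51 genes whose transcripts end at most 18 bases past the stem-loop, 28 were tested, 1 was called higher (*H1-2*) and 5 lower (17.9%, beside 7.25%), with a median of −0.55. The counts of these 51 genes summed to 58.4 and 59.4 CPM in control and to 61.3 and 60.0 CPM in the libraries labelled knockout. The difference between the sets was not tested. Among genes with a mean of at least 100 counts, 7 of the first kind and 3 of the second (*H1-2*, *H2AC18* and *H2AC19*) remain. A higher level and a larger share of transcripts with a polyA tail cannot be told apart in these libraries.

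**Figure D5:**
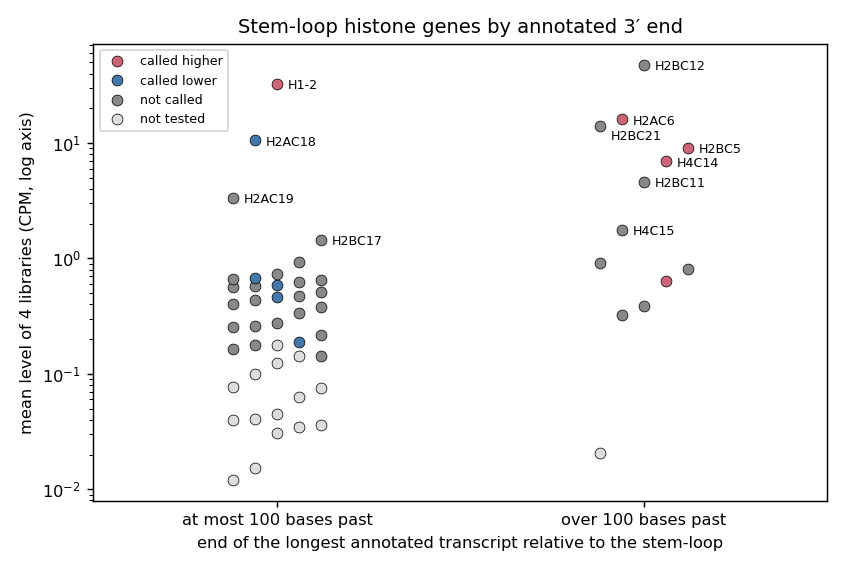
Mean level of each stem-loop histone gene over the 4 libraries (CPM, log axis, genes at 0 in all libraries left out), split by whether an annotated transcript in GENCODE or RefSeq runs more than 100 bases past the stem-loop. Called higher were 4 of 12 tested genes on the right and 1 of 28 on the left, and all 5 genes called lower are on the left.

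Promoter sequence was described because many H2A and H2B genes lie head to head and share 1 promoter region. RefSeq (GRCh38.p14) gave promoters for 66 of the 72 genes, from 250 bases before the start to 50 bases after it. The octamer ATTTGCAT, a site of the OCT family of factors and known from H2B promoters, CCAAT and TATAAA were searched on both strands. The 250 bases upstream are shown 5′ to 3′ for *H2AC6*, which faces *H2BC4*, for *H2BC12*, which faces *H2AC12*, and for *H2AC18*, with all matches to these 3 motifs in capitals.
H2AC6 (chr6:26123922-26124171, plus strand): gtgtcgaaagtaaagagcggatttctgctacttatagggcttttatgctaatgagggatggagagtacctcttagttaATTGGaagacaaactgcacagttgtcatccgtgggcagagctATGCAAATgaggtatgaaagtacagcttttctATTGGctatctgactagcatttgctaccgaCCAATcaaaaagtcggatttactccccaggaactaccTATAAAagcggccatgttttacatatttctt
H2BC12 (chr6:27146859-27147108, minus strand): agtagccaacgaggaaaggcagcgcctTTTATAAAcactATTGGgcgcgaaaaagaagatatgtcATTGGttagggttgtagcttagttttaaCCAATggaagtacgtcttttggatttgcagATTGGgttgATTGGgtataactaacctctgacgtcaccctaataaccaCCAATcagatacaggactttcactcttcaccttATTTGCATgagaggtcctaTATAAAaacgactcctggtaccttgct
H2AC18 (chr1:149842751-149843000, minus strand): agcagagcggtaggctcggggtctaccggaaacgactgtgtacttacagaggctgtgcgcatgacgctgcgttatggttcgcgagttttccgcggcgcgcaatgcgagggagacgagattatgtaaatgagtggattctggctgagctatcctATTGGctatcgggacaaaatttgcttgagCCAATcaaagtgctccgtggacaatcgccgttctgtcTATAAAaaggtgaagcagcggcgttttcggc
The octamer was in 14 of 19 H2B promoters (73.7%) and 11 of 15 H2A promoters (73.3%), beside 1.80% of all 27305 promoters. It was in 1 of 11 H3 promoters, that of *H3C4*, for which the table gives the same window as for *H2AC7*, and in none of the 9 H1 and 12 H4 promoters. CCAAT was in all 19 H2B, 15 H2A and 11 H3 promoters, in 8 of 9 for H1 and in 3 of 12 for H4, beside 35.7% of all promoters, and TATAAA in 12 of 19 for H2B, beside 3264 of the 27305. The motifs did not separate the called genes, since the octamer was in 2 of the 5 promoters of genes called higher and in 2 of the 4 given for genes called lower. *H2AC6* and *H2BC12* held it, and *H2AC18* did not in this window.

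Partners that face each other over less than 1 kb did not always move alike. Of 12 such pairs both genes were tested in 8, and the sign of the change was the same in 6. *H2BC4* (log2 fold change 1.37) and *H2AC6* (0.88), whose starts are 246 bases apart on the sequence shown for *H2AC6*, were both called higher, the single pair with both genes called. *H2BC12* (0.54) and *H2AC12* (−3.42), 251 bases apart, passed the test in opposite directions. *H2BC7* (−1.46) with *H2AC7* (−0.89) and *H2AC11* (−1.01) with *H2BC11* (−0.30) each had 1 gene called lower and its partner below 0 without passing.

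Calls are given next by histone cluster, beside 8.88% of all tested genes called higher and 7.25% called lower. The chromosome 6 cluster (chr6:25723397-27893891) held 55 members, of which 31 were tested, with 4 called higher and 3 lower. Between them 18 other genes were tested and none was called, with a median log2 fold change of 0.15 and a range from −1.18 to 0.52. The chromosome 1 cluster (chr1:149782689-149887965) held 11 members, of which 9 were tested, with 1 called higher (*H4C14*, not called when summed with its copy) and 2 lower. Its single other tested gene, the H2B pseudogene *H2BC20P*, had 247 and 231 counts in control and 66 and 92 counts in the libraries labelled knockout and fell by 1.67 on the log2 scale (SE 0.23, adjusted p = 0.000175).

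Genes that control histone genes, process their mRNAs or handle the proteins are given for the pathway around the members, from lists written by hand. Of 13 regulators of histone transcription 3 were called higher (beside 8.88% of all tested genes) and none lower (beside 7.25%). Their median log2 fold change was 0.032. *NPAT*, the coactivator of histone genes, had 968 and 995 counts in control and 1650 and 1732 counts in the libraries labelled knockout and rose by 0.71 (SE 0.081, adjusted p = 5.7e-05 by edgeR's quasi-likelihood test). *CCNE1* and *CCNE2*, the cyclins of CDK2 that acts on NPAT, rose by 1.03 (adjusted p = 0.00091) and 1.18 (adjusted p = 6.8e-06). Of 30 S phase genes 1 was called higher (*CCNE2*) and none lower. By adjusted p alone 5 of the 30 were higher (beside 26.8% of all tested genes) and 15 lower (beside 25.8%). The median was −0.11.

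Of the 18 tested genes for 3′ end processing, *ZNF473*, a zinc finger protein of the U7 snRNP complex, was called higher with 816 and 680 counts in control against 1489 and 1452 counts (log2 fold change 0.90, adjusted p = 7.7e-05), and none was called lower. *SLBP*, the protein that binds the stem-loop, had 4974 and 4699 counts against 4802 and 4989 counts, which overlap (log2 fold change −0.061, adjusted p = 0.36). None of the 7 tested genes for decay of histone mRNA and none of the 22 histone chaperone genes reached the fold threshold. By adjusted p alone 4 decay genes were higher and 2 lower, with *XRN1* at 0.51 and *UPF1* at −0.46. For the chaperones 6 were higher and 9 lower, with *HIRA* at 0.56 and *ASF1B* at −0.53. Of all tested genes 26.8% were higher and 25.8% lower by adjusted p alone.

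Histone genes with other symbols, among them replacement histones made also outside S phase, gave a further comparison. Of 13 such genes 10 were tested, 2 were called lower (beside 7.25% of all tested genes) and none higher. The median log2 fold change was −0.16. The 2 called lower, *H2AW* and *H2BU1*, are an H2A and an H2B gene that the symbol rule does not match. The class results above leave them out. *H2AW*, an H2A gene of chromosome 1, had 1329 and 1321 counts in control and 700 and 652 counts in the libraries labelled knockout and fell by 1.05 (SE 0.089, adjusted p = 8.1e-06). *H2BU1* had 101 and 59 counts against 21 and 38 counts and fell by 1.51 (SE 0.43, adjusted p = 0.0141). *H3-3B*, which encodes H3.3, fell by 0.51 (adjusted p = 1.1e-06) from 37482 and 38251 counts to 28606 and 27554 counts. *H3-3A* had 637 and 217 counts against 369 and 68 counts, which overlap (log2 fold change −1.06, adjusted p = 0.189). *H2AX*, whose mRNA also carries the stem-loop, was at −0.11 (adjusted p = 0.184) and *H2AZ1* at 0.11 (adjusted p = 0.0301), both far below 1.5-fold.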

How the data were processed

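The 4 RNA-seq libraries were 2 control libraries and 2 labelled *USP22* knockout. Reads had been aligned by the authors to hg38 (HISAT2 2.2.1), and the gene counts of StringTie 2.2.1 were deposited as whole numbers, without scaling. The annotation and the strand setting are not given in the sources used here. DESeq2 1.34.0 is named in the submitters' processing notes. The 10 µM dose is taken from the study's methods and the 24 h from the labels.

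The whole count table was fitted with edgeR 4.0.16 under R 4.3.3, using TMM factors, the group-wise filterByExpr at a minimum of 10, and glmQLFit with glmQLFTest. All adjusted p-values in the report come from this quasi-likelihood test of edgeR, with Benjamini-Hochberg correction over the 15150 tested genes. A call needed an adjusted p below 0.05 and a difference of 1.5-fold or more, as in the study. Standard errors (SE) were obtained by dividing the size of the log2 fold change by the square root of F. The fits were tested on simulated data. Totals of 62030307 to 64728272 counts per library limit the precision of low genes most. Replicates differed by more than the sampling noise (mean chi-square per gene of 7.91 in control and 8.44 in the libraries labelled knockout). The labels do not say that replicates are separate cultures, so p-values measure the spread between these samples.

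Positions, canonical lengths and stem-loops were read from GENCODE v44 and hg38, and promoters from RefSeq. All 72 members were matched. Members called, and the 2 genes per class with the highest level per length, were named with full values. In the lists, called genes, or otherwise the largest changes at an adjusted p below 0.05, were named, as were *NPAT*, *SLBP*, *H2AX*, *H2AZ1*, *H3-3A* and *H3-3B*. Other members were named by symbol and value. The members, the lists and the tests were chosen with earlier results of these data known. Alternatives were DESeq2 1.42.0, RLE factors, scaling to library size only, dropping the filter, a minimum mean of 50 counts, a replicate block, removal of lowess trends on GC content and length (span 0.3), no fold threshold, a test against 1.5-fold, each library left out, and near-identical copies summed. The last was chosen after seeing the data. No comparison of proteins was made, and the values of 1 member are not reported here.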

Additional observations from a re-analysis of the deposited data

How the results depend on the processing

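The 5 genes called higher became 1 and the 5 called lower became 1 in a test against 1.5-fold, where no H2B gene was called in either direction (0 and 0). The count called lower was 2 with DESeq2, 2 without a filter, 1 at a mean of at least 50 counts, 2 with the GC and length correction and 8 without a fold threshold. The 2 H2B genes called higher became 1 with DESeq2 and 1 at a mean of at least 50 counts. The 1 called lower became 0 with DESeq2, without a filter, at a mean of at least 50 counts and with the GC correction, and 2 without a fold threshold. The median of −0.30 became −0.54 with DESeq2, −0.54 without a filter, −0.029 at a mean of at least 50 counts and −0.090 with the GC correction. The difference of 0.31 between the H2B median and that of the other classes became −0.16 with DESeq2 and −0.16 without a filter, both of which add the low genes, 0.25 at a mean of at least 50 counts and 0.27 with copies summed. The H2B count called higher was 3 with library size alone, with the GC correction and without a fold threshold. RLE factors left all 4 counts as they were. The cause of the other shifts was not tested.

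Without 1 library, whose group then holds a lone sample assumed to vary like the other group, the higher count ranged from 3 to 6, the lower count from 2 to 4, the H2B counts from 0 to 2 higher and from 0 to 1 lower, the median from −0.48 to −0.35 and the H2B difference from 0.064 to 0.42. The lowest count of higher calls, 3, and the H2B count of 0 came without control replicate 2. In the fits without a library the filter was applied again to the remaining libraries, so the set of tested genes was not held fixed. The replicate block left 5 genes higher, 2 of them H2B, and took the lower count to 3 and its H2B count to 0. The numbers do not pair the samples, since the labels tie no number to a batch and the correlation of same-numbered deviations was 0.042 over 2 pairs.

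Of 268 comparisons of a single gene with another setting 243 kept direction and side of the threshold, 21 lost the call and 4 reversed, all with the GC correction, namely *H3C13* (0.051), *H2AC20* (0.039), *H1-10* (0.058) and *H4C9* (0.19). Of 168 fits of a gene without a library 17 reversed, in *H4C15* (−1.27 to 0.61), *H2AC19* (−0.83 to 4.76), *H2AC20* (−0.86 to 0.22), *H4C3* (−1.78 to 0.65), *H3C4* (−0.18 to 0.29), *H4C5* (−6.51 to 0.70), *H4C8* (−1.03 to 1.02), *H4C9* (−0.63 to 0.65), *H3C10* (−0.65 to 0.18), *H2AC15* (−0.057 to 0.68), *H2BC15* (−0.21 to 0.47) and *H2BC17* (−0.40 to 0.38). None of these genes was called in the fit of all 4 libraries. Depth limits genes under 100 counts, where most lower calls lie.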
